A study of Mus musculus with 8 samples.

Results

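The genes described here are 74 DNA repair genes of the mouse, chosen by their symbols: the Fanconi anaemia genes, the numbered Rad, Xrcc and Ercc genes, Brca1, Brca2, Brip1, Palb2 and Blm, the mismatch repair genes, Parp1 to Parp3, the Neil glycosylases with Ogg1, the ligases Lig3 and Lig4, and the kinases Atm, Atr, Chek1, Chek2 and Prkdc. Rad21, a cohesin subunit, was left out. Of the 74, 73 were among 20512 named genes of an exon table and 73 among 18655 named genes of an intron table, and 72 were in both. Fancf had exon values only, and Ercc2 had intron values only. The symbols, not the values, set the membership.

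DNA repair is divided into pathways by the kind of lesion. Mismatch repair corrects errors left behind the replication fork, base excision repair removes small damaged bases, and nucleotide excision repair cuts out bulky lesions and lesions that stall transcription. Breaks through both strands are rejoined by end joining or copied from the sister chromatid by homologous recombination, crosslinks between the strands are opened by the Fanconi anaemia proteins, and checkpoint kinases halt the cell cycle while repair goes on. Embryonic stem cells cycle fast, with much of the cycle spent in S phase, and are known for high levels of many replication-coupled repair proteins.

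Neural progenitor cells (NPC) of 1 clone were compared with the embryonic stem cell (ESC) line F1-21.6 from which the clone was derived. The line is a hybrid of 129Sv and Cast/EiJ, and both cell types carry that background. ESC were grown on inactivated embryonic fibroblasts in serum with leukaemia inhibitory factor, and NPC came from a neural differentiation of the same line. Each cell type had 2 biological replicates with 2 technical libraries each, 8 libraries in all, made from total RNA after removal of ribosomal RNA, so that unspliced transcripts were kept. Since NPC come from 1 clone, what is particular to that clone and what is particular to NPC cannot be told apart.

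Exon levels were deposited as RPKM (read counts scaled to exon length and library size), pooled per cell type by the authors and without a spread, with the authors' own test: a log2 fold change (NPC over ESC) and its adjusted p. Intron levels were deposited for each biological replicate, also on an RPKM scale. The 4 intron columns rest on denominators of 5792056 and 5186790 reads in NPC replicates 1 and 2 and of 5767704 and 6500767 reads in ESC replicates 1 and 2. Olfactory, vomeronasal and taste receptor genes, which neither cell type is known to use, had median intron levels of 0.748 and 0.0829 RPKM in NPC replicates 1 and 2, against 0.0295 and 0 RPKM in ESC replicates 1 and 2. An intron level near 0.748 RPKM in NPC replicate 1 was therefore no higher than that of unused genes. The labels held on their markers: all 7 tested ESC markers were lower in NPC and all 8 tested neural progenitor markers were higher in the authors' deposited table. In bulk RNA, fewer cells that express a gene and less RNA of it per cell cannot be told apart.

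Most repair genes had lower exon levels in NPC, and few had higher ones. In the authors' deposited table, among the 69 members that averaged 1 RPKM or more over both cell types, 41 were lower in NPC and 4 were higher at an adjusted p of 0.05, and 24 did not pass. Over all 12509 genes tested in the same way, 33.9% were lower and 32.3% higher (66.2% in either direction), so the members called lower made up a larger share (59.4%) and those called higher a smaller one (5.80%). In the authors' deposited table the 69 members had a median log2 fold change of -0.88, against -0.07 for the genes tested. At least 4-fold decreases were called for 13 members (18.8%), against 14.8% of all genes, while at least 4-fold increases were limited to Parp3, against 15.8% of all genes. The median member stood at the 39.9th percentile of exon levels in NPC and at the 62.0th percentile in ESC, among the genes tested. The 4 untested members, Msh4, Msh5, Rad21l and Fancd2os, lay below 1 RPKM on average.

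**Figure D1:**
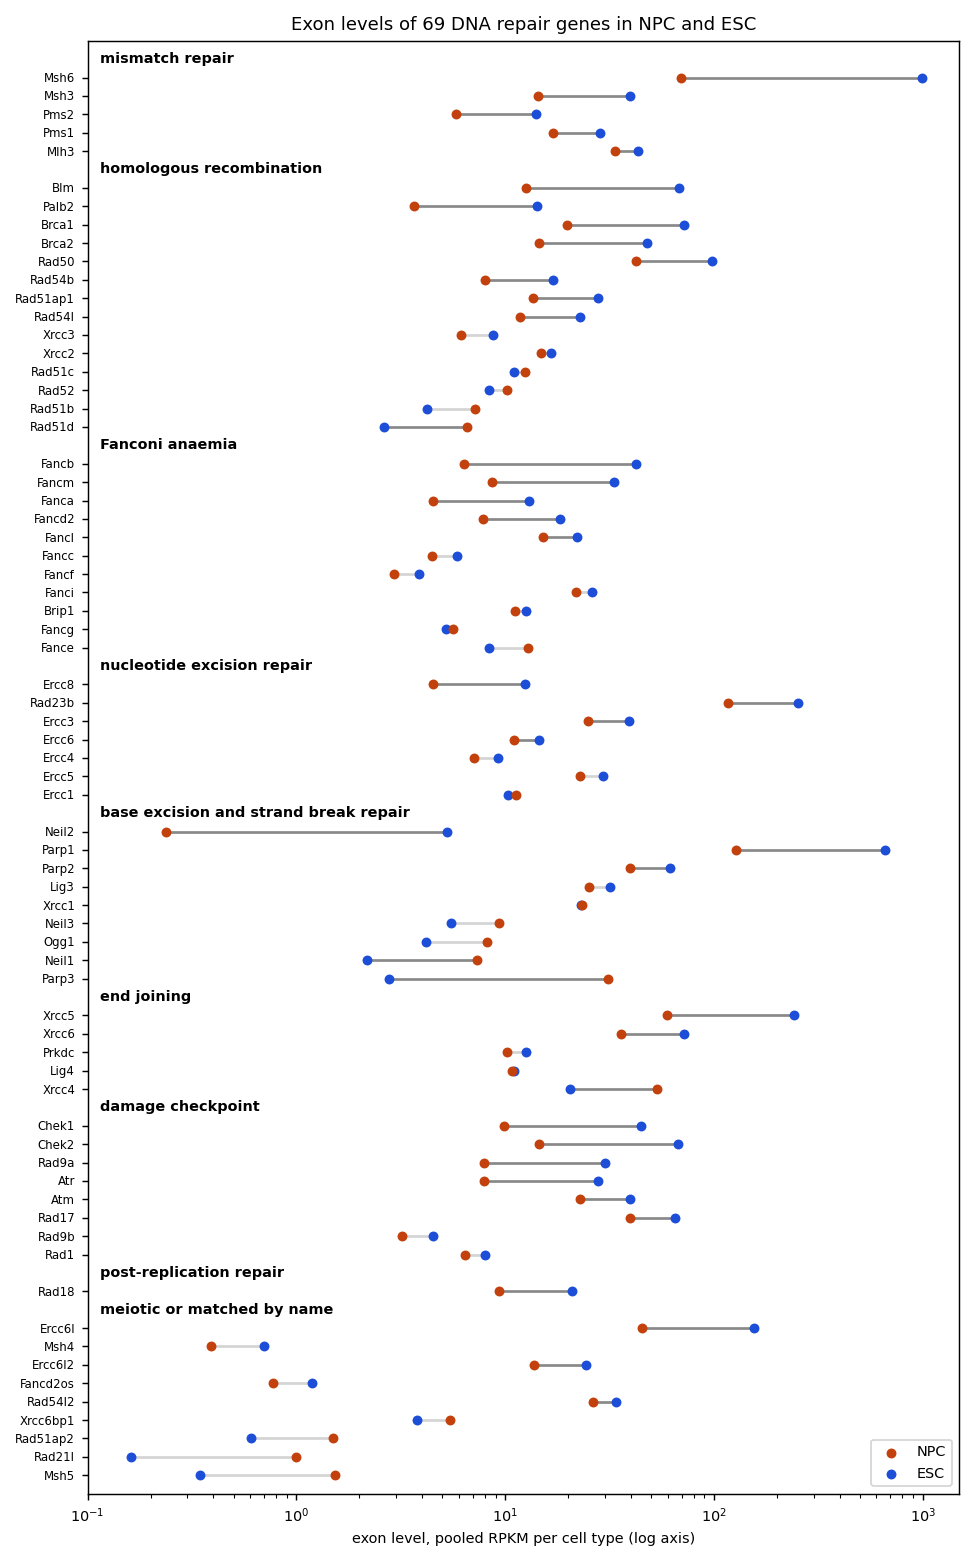
Exon levels of 69 of the 73 DNA repair genes in NPC (orange) and ESC (blue), as the authors' pooled RPKM on a log axis, grouped by pathway and ordered by fold change within each. Dark connecting lines mark the 41 drawn genes called, lower or higher, in the authors' deposited table and light lines the others; most orange points lie left of the blue ones, with Parp3, Xrcc4, Neil1 and Rad51d the called exceptions.

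Introns gave values with replicates. They were tested with limma on log2(RPKM + 1), a scale that understates the change of low genes, for genes averaging 1 RPKM or more, and 60 members passed that filter. Of these, 37 were lower in NPC and 2 were higher at an adjusted p of 0.05 by limma, against 34.0% lower and 13.2% higher of all 8811 tested genes. Some members passed the filter only through their ESC level, so this count is not one over the whole family: with a mean of at least 0.25 RPKM all 73 members were tested, and 36 were lower and 3 higher, against 19.4% and 13.4% of all genes. The tested genes as a whole were shifted, by a median of -0.43 on the log2 scale. When each column was centred on its own median, that shift was -0.04, and 18 members were lower and 4 higher, beside 24.6% and 24.8% of all genes. Without ESC replicate 1 or 2 the fit rests on 1 ESC sample, and limma called fewer members. Fewer of all tested genes were called there too, in either direction. Calls lost in those fits, given below for single genes, are therefore not particular to repair genes. Pathway counts on introns below are those of the columns as deposited.

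**Figure D2:**
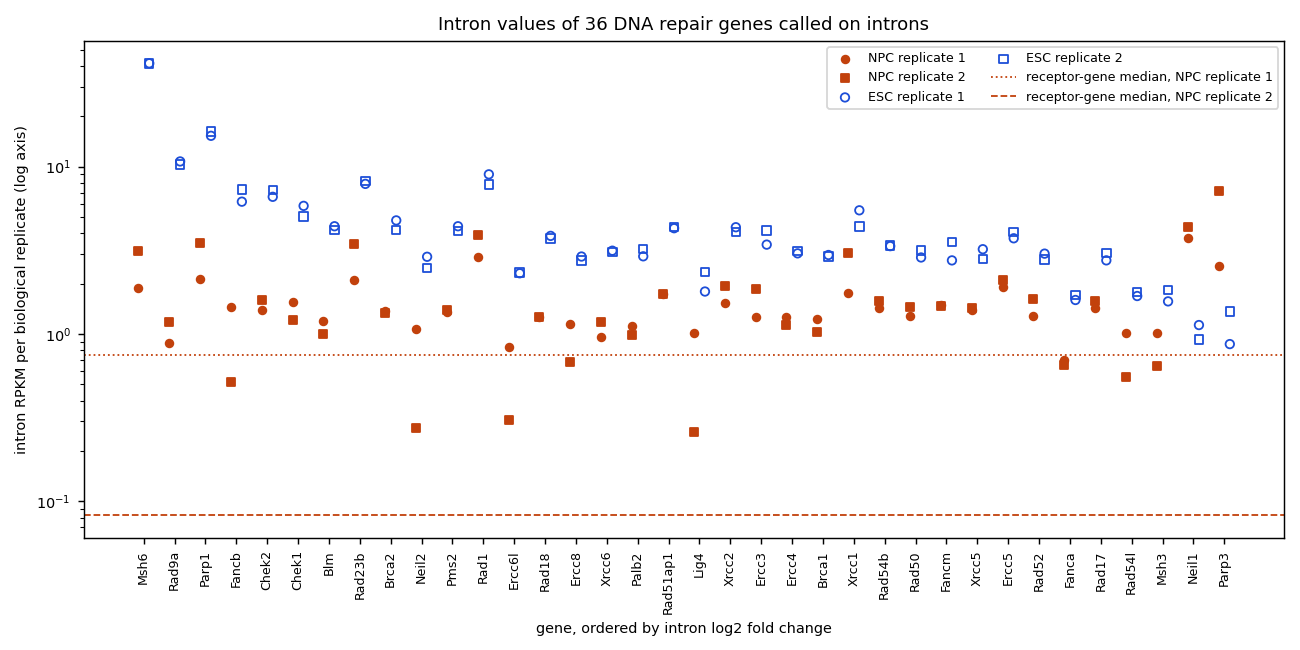
Intron RPKM of 36 of the 39 DNA repair genes called on introns, 1 point per biological replicate on a log axis, NPC left of ESC for each gene, ordered by intron log2 fold change. The NPC points lie below the ESC points from Msh6 to Msh3 and above them for Neil1 and Parp3; the dotted line at 0.748 RPKM and the dashed line at 0.0829 RPKM are the receptor-gene medians of NPC replicates 1 and 2.

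For the exon counts of pathways and lists below, the shares over all 12509 genes tested are 33.9% lower and 32.3% higher. Among the pathways with more than 1 member, only mismatch repair had every member called, all 7 of them lower on exons (median log2 fold change -1.43 in the authors' deposited table). Msh6, of the dimer that finds single mispaired bases, had the highest exon level of all 73 members in ESC and fell the most of the pathway. Its exon level was 69.6 RPKM in NPC and 996 RPKM in ESC, a log2 fold change of -3.99 (adjusted p = 1.73e-78) in the authors' deposited table. Its introns, between 88374746 and 88390063 of chromosome 17 on build mm9, had 1.88 and 3.15 RPKM in NPC replicates 1 and 2, against 41.5 and 41.4 RPKM in ESC replicates 1 and 2. Both NPC replicates were far below both ESC replicates, and limma gave a log2 fold change of -3.62 (SE 0.610, adjusted p = 0.000658). Without either ESC replicate the limma call was lost while the log2 fold change was -3.62 in both cases.

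Msh3, which handles larger loops, was at 14.4 RPKM in NPC and 39.8 RPKM in ESC on exons. Msh3 introns had 1.01 and 0.640 RPKM in NPC and 1.57 and 1.83 RPKM in ESC, without overlap (limma log2 fold change -0.57, SE 0.186, adjusted p = 0.0257), a call that centring the columns or leaving out either ESC replicate removed. The ratio of Msh6 to Msh3 exon levels was 4.85 in NPC and 25.0 in ESC. Ratios here are of pooled values and have no error.

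The MutL genes, whose products act after the mismatch is found, had smaller decreases, a difference that was not tested. Pms2, which carries the nuclease of the main MutL dimer, was at 5.79 RPKM in NPC and 13.97 RPKM in ESC on exons. Pms2 introns had 1.35 and 1.38 RPKM in NPC and 4.40 and 4.13 RPKM in ESC, which do not overlap (limma log2 fold change -1.15, SE 0.224, adjusted p = 0.00160), and the call was lost without either ESC replicate. Pms1 (17.0 RPKM in NPC, 28.5 RPKM in ESC) and Mlh3 (33.5 RPKM in NPC, 43.1 RPKM in ESC) had the smallest decreases of the pathway, at -0.89 and -0.54 in the authors' deposited table.

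Stretches before the start sites of 4 members are shown because these are the 3 called members with the largest exon decreases that have a promoter in the RefSeq table (build GRCm38.p6) and the member with the largest increase. Capitals mark CCAAT or its reverse complement. Each stretch was cut around the first motif found in that promoter, so a marked motif was present by construction. The first marked motif begins at positions -34, -201, -186 and -238 from the start for Msh6, Fancb, Blm and Parp3.
Msh6, chr17:87974980-87975049, plus strand: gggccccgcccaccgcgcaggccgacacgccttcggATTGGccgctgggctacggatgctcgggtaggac
Fancb, chrX:164980355-164980434, plus strand: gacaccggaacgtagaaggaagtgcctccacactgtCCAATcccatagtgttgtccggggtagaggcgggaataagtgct
Blm, chr7:80535141-80535220, minus strand: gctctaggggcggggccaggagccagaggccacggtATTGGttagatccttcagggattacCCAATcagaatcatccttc
Parp3, chr9:106477144-106477199, minus strand: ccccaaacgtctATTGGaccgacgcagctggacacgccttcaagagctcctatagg

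Promoters, from 250 bases before to 50 bases after the start, were found for 58 members, and both strands were searched. CCAAT was present for 33 of the 58 (56.9%), against 41.1% of 27025 genes in the table. It was present for 18 of 29 members called lower on exons and for 15 of the 29 others, so members of either kind held it. The E2F-type motif TTTGGCGC was present for 1 member (0.585% of all genes) and TTTCGCGC for 2, Msh3 and Rad51c (0.374% of all genes). TTTGAA, the CHR motif of mitotic genes, was present for 4 members (6.90%), none of them called lower, against 20.2% of all genes.

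In homologous recombination, 9 of 15 members were lower on exons, 1 was higher and 5 did not pass (median -1.19 in the authors' deposited table). Brca2, a mediator of strand exchange, Palb2, which links Brca2 to Brca1, and Brca1 itself fell together on exons. Brca1 was at 19.7 RPKM in NPC and 71.9 RPKM in ESC, Brca2 at 14.4 RPKM in NPC and 47.6 RPKM in ESC, and Palb2 at 3.67 RPKM in NPC and 14.2 RPKM in ESC. Their log2 fold changes in the authors' deposited table were -2.01, -1.86 and -2.15. Brca2 introns had 1.37 and 1.34 RPKM in NPC and 4.77 and 4.17 RPKM in ESC (limma log2 fold change -1.22, SE 0.229, adjusted p = 0.00133), a call lost without ESC replicate 1. Brca1 introns had 1.23 and 1.03 RPKM in NPC and 2.97 and 2.90 RPKM in ESC (limma -0.89, SE 0.193, adjusted p = 0.00313). Neither gene's cell types overlapped, but the Brca1 call was lost when the columns were centred (limma -0.49, adjusted p = 0.0961), as it was without either ESC replicate, and centring also removed that of Palb2 (limma -0.59, adjusted p = 0.0526). Palb2 introns had 1.12 and 0.981 RPKM in NPC and 2.91 and 3.21 RPKM in ESC.

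Blm, the helicase that dissolves crossed strands, was at 12.6 RPKM in NPC and 68.3 RPKM in ESC on exons (log2 fold change -2.58 in the authors' deposited table). On introns it had 1.20 and 1.00 RPKM in NPC and 4.41 and 4.197 RPKM in ESC, without overlap, and its limma call held in all 14 alternatives (log2 fold change -1.34, SE 0.214, adjusted p = 0.000480). Rad50, of the complex that first binds broken ends, was at 42.2 RPKM in NPC and 98.2 RPKM in ESC. Rad54l and Rad54b, motors of strand exchange, and Rad51ap1, a cofactor of it, had exon decreases of -1.10, -1.25 and -1.19 in the authors' deposited table. Rad50 introns had 1.27 and 1.45 RPKM in NPC and 2.87 and 3.16 RPKM in ESC (limma log2 fold change -0.76, SE 0.201, adjusted p = 0.00904). Rad54b introns had 1.43 and 1.58 RPKM in NPC and 3.35 and 3.38 RPKM in ESC, and those of Rad54l 1.01 and 0.554 RPKM in NPC and 1.69 and 1.79 RPKM in ESC. Rad51ap1 introns had 1.74 and 1.74 RPKM in NPC and 4.29 and 4.34 RPKM in ESC. The NPC replicates of all 4 genes lay below both ESC replicates, and limma called each lower, but leaving out either ESC replicate removed the calls.

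Of the paralogs Rad51b, Rad51c, Rad51d, Xrcc2 and Xrcc3, which help to build or hold the recombination filament, Rad51d alone was called on exons. It rose, with 6.57 RPKM in NPC and 2.61 RPKM in ESC (log2 fold change 1.17, adjusted p = 0.000654 in the authors' deposited table). Rad51b (0.53), Rad51c (0.03), Xrcc2 (-0.33) and Xrcc3 (-0.60) did not pass in the authors' deposited table, nor did Rad52 (0.17), a mediator of strand annealing. Rad51d introns had 1.40 and 1.09 RPKM in NPC and 1.11 and 1.03 RPKM in ESC, which overlap (limma log2 fold change 0.11, adjusted p = 0.617). Xrcc2 introns had 1.53 and 1.93 RPKM in NPC and 4.35 and 4.07 RPKM in ESC, called lower by limma (-0.94, adjusted p = 0.00831). The Xrcc2 call was lost in 4 of 14 alternatives, among them leaving out either ESC replicate and subtracting the receptor-gene level. Rad52 introns had 1.28 and 1.62 RPKM in NPC and 3.02 and 2.78 RPKM in ESC (limma log2 fold change -0.67, SE 0.205, adjusted p = 0.0185). The Rad52 call was lost in 7 of 14 alternatives, among them centring (centred limma -0.28, adjusted p = 0.153) and leaving out either ESC replicate.

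Of 11 Fanconi anaemia genes, 5 were lower on exons and none was higher (median -0.54 in the authors' deposited table). The lower share was 45.5%, beside 33.9% of all genes tested. Subunits of the core complex had different values. Fancb, an X-linked subunit of the core ligase, was at 6.38 RPKM in NPC and 42.5 RPKM in ESC (log2 fold change -2.91, adjusted p = 3.14e-26 in the authors' deposited table). Fancb introns had 1.45 and 0.520 RPKM in NPC and 6.18 and 7.30 RPKM in ESC, without overlap (limma log2 fold change -2.001, SE 0.285, adjusted p = 0.000227), a call lost only without the filter on low values. Fancl, the ligase subunit that Fancb supports, had a smaller decrease, with 15.1 RPKM in NPC and 22.2 RPKM in ESC (-0.71, adjusted p = 0.0385 in the authors' deposited table).

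Fancm, the motor that brings the core complex to DNA, was at 8.62 RPKM in NPC and 33.2 RPKM in ESC, and Fanca, a further core subunit, at 4.49 RPKM in NPC and 12.9 RPKM in ESC. Fancc, Fance, Fancf and Fancg of the same core complex lay between 2.92 and 12.8 RPKM in NPC and between 3.85 and 8.39 RPKM in ESC, and none passed. Fancm introns had 1.48 and 1.48 RPKM in NPC and 2.75 and 3.54 RPKM in ESC. Fanca introns had 0.701 and 0.650 RPKM in NPC and 1.60 and 1.71 RPKM in ESC, and both genes were called lower by limma (adjusted p = 0.0147 and 0.00883), calls that centring the columns or leaving out either ESC replicate removed. Fancd2 and Fanci form the clamp that the core complex marks with ubiquitin. Fancd2 was at 7.81 RPKM in NPC and 18.3 RPKM in ESC (-1.39, adjusted p = 1.52e-07), while Fanci was at 21.8 RPKM in NPC and 26.1 RPKM in ESC (-0.44, adjusted p = 0.110) in the authors' deposited table. The difference between the clamp genes was not tested. On introns Fancd2 had 1.13 and 0.863 RPKM in NPC and 1.80 and 1.63 RPKM in ESC, and Fanci had 1.64 and 2.04 RPKM in NPC and 2.56 and 2.63 RPKM in ESC. Neither gene passed in limma (adjusted p = 0.0598 for Fancd2 and 0.192 for Fanci). Brip1, a helicase that binds Brca1, was at 11.1 RPKM in NPC and 12.6 RPKM in ESC and did not pass.

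Nucleotide excision repair genes fell moderately: 5 of 8 tested on exons were lower and none was higher (median -0.69 in the authors' deposited table), and no member reached a 4-fold change. Ercc8, an adaptor in the repair of lesions that stall transcription, was at 4.53 RPKM in NPC and 12.5 RPKM in ESC (log2 fold change -1.59, adjusted p = 2.57e-05 in the authors' deposited table). Its partner in the same process, Ercc6, was at 11.0 RPKM in NPC and 14.6 RPKM in ESC (-0.56, adjusted p = 0.0448 in the authors' deposited table), and its introns had 1.45 and 2.00 RPKM in NPC and 2.63 and 2.78 RPKM in ESC without a limma call (adjusted p = 0.103). Rad23b, a partner of the damage sensor Xpc, was the second highest member in NPC at 117 RPKM, against 253 RPKM in ESC. Rad23b introns had 2.11 and 3.45 RPKM in NPC and 7.89 and 8.22 RPKM in ESC, without overlap (limma log2 fold change -1.28, SE 0.378, adjusted p = 0.0158), a call lost in 4 of 14 alternatives, either ESC replicate left out among them. Ercc8 introns had 1.15 and 0.681 RPKM in NPC and 2.90 and 2.76 RPKM in ESC (limma log2 fold change -1.01, SE 0.198, adjusted p = 0.00171), a call lost in 3 of 14 alternatives, among them centring (centred limma -0.61, adjusted p = 0.106).

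The nucleases that cut out the damaged strand had the smallest exon fold changes of this pathway. Ercc1, which pairs with Ercc4, was at 11.3 RPKM in NPC and 10.3 RPKM in ESC on exons. Ercc1 introns had 1.21 and 1.89 RPKM in NPC and 1.90 and 1.94 RPKM in ESC, with no limma call (adjusted p = 0.415). Ercc4 (-0.52, adjusted p = 0.0929) and the other nuclease Ercc5 (-0.51, adjusted p = 0.0675) missed the threshold in the authors' deposited table. Ercc4 introns nevertheless had 1.26 and 1.13 RPKM in NPC and 3.03 and 3.13 RPKM in ESC (limma -0.90, SE 0.196, adjusted p = 0.00322), a call that was lost when the columns were centred (adjusted p = 0.0775) or either ESC replicate was left out. Ercc3, a helicase of the transcription factor TFIIH, was at 24.9 RPKM in NPC and 39.3 RPKM in ESC on exons. Ercc3 introns had 1.27 and 1.86 RPKM in NPC and 3.42 and 4.15 RPKM in ESC, without overlap (limma log2 fold change -0.90, SE 0.236, adjusted p = 0.00866), a call lost in 4 of 14 alternatives, either ESC replicate left out among them. Ercc5 introns had 1.91 and 2.10 RPKM in NPC and 3.73 and 4.08 RPKM in ESC, also without overlap, and its limma call (adjusted p = 0.0322) was lost in 8 of 13 alternatives, centring and either ESC replicate left out among them. Ercc2, the other TFIIH helicase, had introns of 1.55 and 2.89 RPKM in NPC and 2.88 and 3.19 RPKM in ESC, which overlap slightly (limma -0.36, adjusted p = 0.276).

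Base excision and strand break repair held the largest changes in both directions, with a median of -0.12 in the authors' deposited table. On exons 3 of 9 members were lower (33.3%) and 2 higher (22.2%), beside 33.9% and 32.3% of all genes tested. The lower share was thus near that of all genes. Parp3, which modifies proteins at DNA breaks, rose the most of all members. Its exon level was 31.2 RPKM in NPC and 2.78 RPKM in ESC (log2 fold change 3.34, adjusted p = 4.82e-25 in the authors' deposited table). Parp3 introns, between 106373734 and 106378412 of chromosome 9 on mm9, had 2.53 and 7.15 RPKM in NPC, against 0.870 and 1.37 RPKM in ESC. Both NPC replicates were above both ESC replicates, though NPC replicate 2 was well above NPC replicate 1 (limma log2 fold change 1.35, SE 0.336, adjusted p = 0.00668). The Parp3 intron call was lost in 5 of 14 alternatives and the Neil1 call in 3, both of them without either ESC replicate. Subtracting the receptor-gene level also removed both calls. The limma log2 fold changes were then 1.18 for Parp3 (adjusted p = 0.0571) and 1.19 for Neil1 (adjusted p = 0.0511). The 4 Parp3 intron values rest on 38 and 96 reads in NPC and on 13 and 23 reads in ESC.

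Parp1, the main sensor of strand breaks, went the other way. It was the highest member in NPC at 128 RPKM, against 663 RPKM in ESC (log2 fold change -2.53, adjusted p = 1.86e-31 in the authors' deposited table). Introns of Parp1 had 2.13 and 3.50 RPKM in NPC and 15.3 and 16.2 RPKM in ESC, far apart (limma log2 fold change -2.16, SE 0.477, adjusted p = 0.00344), a call that was lost without either ESC replicate. Parp2, which shares tasks with Parp1, was at 39.8 RPKM in NPC and 61.4 RPKM in ESC (-0.80, adjusted p = 0.00183 in the authors' deposited table). The ratio of Parp1 to Parp2 exon levels was 3.21 in NPC and 10.8 in ESC, and that of Parp1 to Parp3 was 4.10 in NPC and 238 in ESC.

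Of the Neil glycosylases, which remove oxidised bases, Neil1 rose and Neil2 fell. Neil1 was at 7.33 RPKM in NPC and 2.17 RPKM in ESC on exons (log2 fold change 1.60, adjusted p = 0.00177 in the authors' deposited table). Its introns had 3.73 and 4.35 RPKM in NPC and 1.13 and 0.926 RPKM in ESC, without overlap (limma 1.31, SE 0.210, adjusted p = 0.000473). Neil2 was at 0.236 RPKM in NPC and 5.26 RPKM in ESC, the lowest NPC exon level and the largest decrease of all members (-4.54, adjusted p = 1.66e-07 in the authors' deposited table). Neil2 introns had 1.07 and 0.273 RPKM in NPC and 2.89 and 2.48 RPKM in ESC, without overlap (limma -1.18, SE 0.232, adjusted p = 0.00171). The Neil2 call was lost in 3 of 14 alternatives, among them centring (centred limma -0.78, adjusted p = 0.131).

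Neil3, a glycosylase of dividing cells, did not pass, with 9.30 RPKM in NPC and 5.48 RPKM in ESC. Ogg1, the glycosylase for oxidised guanine, did not pass either (8.22 RPKM in NPC, 4.19 RPKM in ESC; adjusted p = 0.131 in the authors' deposited table). The scaffold Xrcc1 and its ligase Lig3, which seal the strand at the end of the pathway, had no called exon change. Xrcc1 was at 23.4 RPKM in NPC and 23.1 RPKM in ESC, and Lig3 at 25.1 RPKM in NPC and 31.6 RPKM in ESC, and neither passed. Lig3 introns had 1.80 and 2.31 RPKM in NPC and 2.95 and 3.02 RPKM in ESC, and limma did not call them (adjusted p = 0.175). Ogg1 introns had 1.19 and 1.103 RPKM in NPC and 1.07 and 1.25 RPKM in ESC, and those of Neil3 had 1.47 and 1.81 RPKM in NPC and 1.49 and 1.35 RPKM in ESC. The cell types overlapped for both glycosylases. Xrcc1 introns had 1.77 and 3.06 RPKM in NPC and 5.48 and 4.40 RPKM in ESC, which limma called at an adjusted p of 0.0466 and which lost the call in 10 of 14 alternatives.

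End joining genes split. Xrcc5 and Xrcc6, the subunits of the Ku ring that holds broken ends, were lower, Xrcc5 with 59.6 RPKM in NPC and 242 RPKM in ESC, and Xrcc6 with 35.9 RPKM in NPC and 72.2 RPKM in ESC. Xrcc4, the partner of the ligase Lig4, rose, with 53.2 RPKM in NPC and 20.4 RPKM in ESC (log2 fold change 1.24, adjusted p = 0.000117 in the authors' deposited table). Lig4 itself (10.8 RPKM in NPC, 11.0 RPKM in ESC) and the kinase Prkdc (10.2 RPKM in NPC, 12.6 RPKM in ESC) did not pass. Xrcc6 introns had 0.958 and 1.18 RPKM in NPC and 3.15 and 3.08 RPKM in ESC, without overlap (limma -0.99, SE 0.194, adjusted p = 0.00166), a call lost only without the filter. Xrcc5 introns had 1.40 and 1.44 RPKM in NPC and 3.21 and 2.81 RPKM in ESC (limma log2 fold change -0.73, SE 0.203, adjusted p = 0.0123), and the call was lost in 6 of 13 alternatives, among them centring (centred limma -0.33, adjusted p = 0.167) and leaving out either ESC replicate. Xrcc4 introns, at 1.26 and 0.909 RPKM in NPC and 0.721 and 0.806 RPKM in ESC, lay below the filter and were not tested. The deposited values were higher in both NPC replicates. The receptor-gene level was 0.748 RPKM in NPC replicate 1, so that replicate does not show a rise of Xrcc4 introns. Prkdc introns had 1.02 and 0.562 RPKM in NPC and 0.686 and 0.680 RPKM in ESC, which overlap. Lig4 introns, at 1.01 and 0.260 RPKM in NPC and 1.79 and 2.35 RPKM in ESC, rest on 13 and 3 reads in NPC and 23 and 34 reads in ESC, and their limma call (adjusted p = 0.00589) was lost with centring (centred limma -0.55, adjusted p = 0.270).

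Of 8 checkpoint genes, 6 were lower on exons and none was higher (median -1.46 in the authors' deposited table). Chek1, the kinase downstream of Atr, was at 9.88 RPKM in NPC and 44.5 RPKM in ESC (log2 fold change -2.33, adjusted p = 1.50e-19), and Chek2, downstream of Atm, at 14.5 RPKM in NPC and 67.5 RPKM in ESC (-2.31, adjusted p = 6.56e-13) in the authors' deposited table. On introns Chek1 had 1.54 and 1.22 RPKM in NPC and 5.83 and 5.03 RPKM in ESC (limma -1.43, SE 0.252, adjusted p = 0.000871). Chek2 introns had 1.39 and 1.59 RPKM in NPC and 6.60 and 7.25 RPKM in ESC (limma -1.67, SE 0.283, adjusted p = 0.000678). Both kinases were lower in each NPC replicate, and both limma calls held in all 14 alternatives.

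The upstream kinases were called lower on exons and were not called on introns, and the difference between the readouts was not tested. Atr was at 7.96 RPKM in NPC and 27.8 RPKM in ESC (-1.96, adjusted p = 1.38e-15), and Atm at 22.7 RPKM in NPC and 39.7 RPKM in ESC (-0.96, adjusted p = 0.000128) in the authors' deposited table. Atr introns had 1.40 and 1.06 RPKM in NPC and 1.85 and 1.58 RPKM in ESC (limma -0.29, SE 0.186, adjusted p = 0.223), and those of Atm had 1.43 and 1.69 RPKM in NPC and 1.89 and 2.24 RPKM in ESC (limma -0.26, SE 0.193, adjusted p = 0.288). The deposited NPC values were below the ESC values for both kinases, but by less than the median shift of -0.43 over all tested genes. With centred columns the limma log2 fold changes were 0.11 for Atr and 0.14 for Atm (adjusted p = 0.723 and 0.483). The direction of the intron change therefore depended on the scaling.

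Rad9a, of the clamp that loads at damaged sites, was at 7.93 RPKM in NPC and 30.2 RPKM in ESC on exons. Its introns showed the second largest decrease of all members, with 0.888 and 1.17 RPKM in NPC and 10.7 and 10.3 RPKM in ESC (limma -2.51, SE 0.309, adjusted p = 9.42e-05). Its clamp partner Rad1 did not pass on exons (6.42 RPKM in NPC, 7.97 RPKM in ESC), while its introns had 2.87 and 3.88 RPKM in NPC and 8.998 and 7.80 RPKM in ESC (limma -1.11, SE 0.401, adjusted p = 0.0389). The Rad1 call was lost in 7 of 14 alternatives, among them both smaller pseudocounts, the replicate block and leaving out either ESC replicate. Rad17, which loads the clamp, was at 39.7 RPKM in NPC and 65.0 RPKM in ESC, and its introns had 1.43 and 1.58 RPKM in NPC and 2.75 and 3.05 RPKM in ESC (limma log2 fold change -0.64, SE 0.203, adjusted p = 0.0225). That call was lost in 7 of 14 alternatives, among them centring (centred limma -0.24, adjusted p = 0.243) and leaving out either ESC replicate. Rad18, the ligase that marks stalled replication forks, was at 9.32 RPKM in NPC and 21.0 RPKM in ESC on exons. Rad18 introns had 1.26 and 1.26 RPKM in NPC and 3.86 and 3.72 RPKM in ESC, well apart (limma -1.08, SE 0.210, adjusted p = 0.00160), though the call was lost without ESC replicate 1.

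A further 9 members were grouped apart from the pathways, as meiotic genes or as matches by symbol. Ercc6l, a helicase of mitotic chromosome bridges, was at 45.4 RPKM in NPC and 156 RPKM in ESC (log2 fold change -1.94, adjusted p = 6.96e-18 in the authors' deposited table). Ercc6l introns had 0.840 and 0.306 RPKM in NPC and 2.31 and 2.34 RPKM in ESC (limma log2 fold change -1.10, SE 0.202, adjusted p = 0.00116). NPC replicate 1 lay near its receptor-gene level of 0.748 RPKM, and centring removed the call (centred limma -0.70, adjusted p = 0.118). Ercc6l2 (-0.97) and Rad54l2 (-0.53) were also called lower there. The meiotic genes Msh4 and Rad21l were below 1 RPKM in both cell types, and the meiotic gene Msh5 was at 1.54 RPKM in NPC and 0.344 RPKM in ESC. Rad51ap2, Xrcc6bp1 and Fancd2os lay between 0.776 and 5.47 RPKM in NPC and between 0.607 and 3.80 RPKM in ESC, and none was called. Msh5 averaged under 1 RPKM and so is not among the tested members, though its adjusted p in the authors' deposited table was 0.0124.

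Exon and intron changes of the members ran in the same direction more often than not. Of 59 members tested in both tables, 54 had the same sign. On both readouts 30 were called lower, and Neil1 and Parp3 were called higher, beside 26.1% lower and 12.3% higher on both among 8380 genes tested in both tables. Only exons were called lower for 9 members, among them Atr, Atm, Mlh3, Fancd2 and Parp2, and only introns for 7, among them Xrcc1, Xrcc2, Rad1, Rad52 and Lig4. Across the 59 members the log2 fold changes had a Pearson correlation of 0.79, and across all 8380 genes of 0.80. Both readouts come from the same libraries, and genes are not independent replicates.

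**Figure D3:**
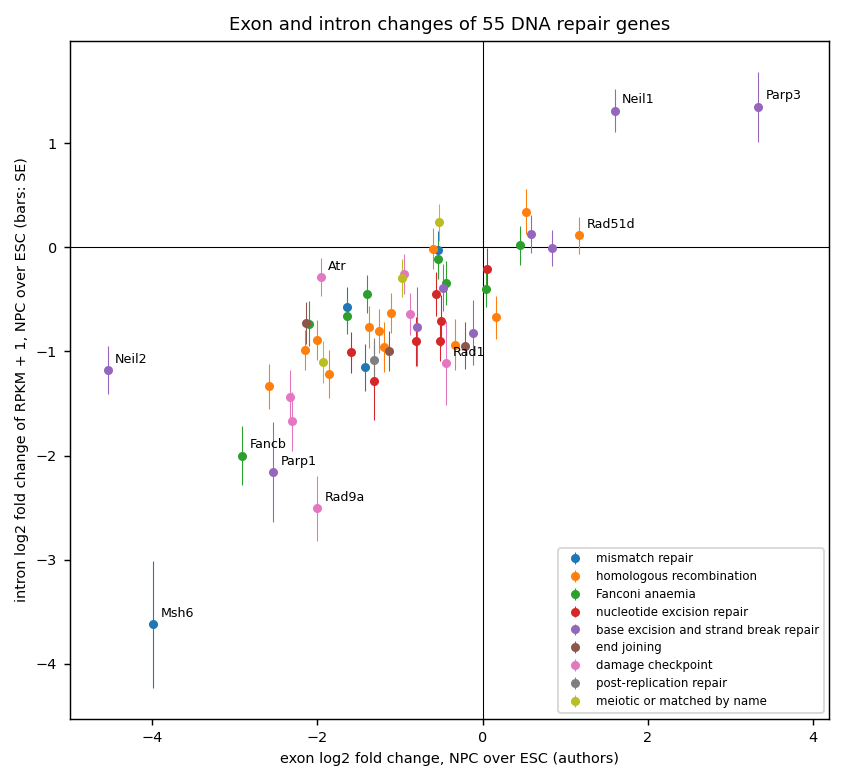
Exon log2 fold change (authors' deposited table) against intron log2 fold change of RPKM + 1 (limma, bars are SE) for 55 of the 59 DNA repair genes tested in both, NPC over ESC, coloured by pathway. Msh6 lies lowest at -3.99 and -3.62, Parp3 and Neil1 lie in the upper right.

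Other genes of the same pathways gave a mixed picture, from lists that hold no member. Of 16 further checkpoint genes, 13 were lower on exons and none was higher (median -1.55 in the authors' deposited table), led by Trp53 (16.3 RPKM in NPC, 109 RPKM in ESC) and its ligase Mdm2 (51.1 RPKM in NPC, 308 RPKM in ESC). Of 25 further recombination genes, 14 were lower and 2 higher (median -0.78), with the nuclease Exo1 at 8.28 RPKM in NPC and 50.8 RPKM in ESC. Of 17 further base excision genes, 9 were lower and 3 higher (median -0.65), with the uracil glycosylase Ung at 10.9 RPKM in NPC and 118 RPKM in ESC and Aptx, which repairs aborted ligations, at 11.0 RPKM in NPC and 3.97 RPKM in ESC. Of 12 further Fanconi and crosslink genes, 6 were lower and 1 higher (median -0.46).

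The remaining lists also held genes that changed in each direction. Over all genes tested 33.9% were lower and 32.3% higher, so calls in both directions are not particular to these lists. Of 18 further nucleotide excision genes 7 were lower and 4 higher (median -0.54 in the authors' deposited table), with the scaffold Xpa at 98.2 RPKM in NPC and 15.0 RPKM in ESC and Uvssa, of transcription-coupled repair, at 13.7 RPKM in NPC and 2.77 RPKM in ESC. Of 12 translesion genes 4 were lower and 3 higher (median -0.38), with the polymerase subunits Rev3l at 158 RPKM in NPC and 30.9 RPKM in ESC and Mad2l2 at 31.9 RPKM in NPC and 7.73 RPKM in ESC. Of 9 further end joining genes 4 were lower and 2 higher (median -0.23), with Rif1, which protects ends from resection, at 41.8 RPKM in NPC and 656 RPKM in ESC. Of 20 targets of p53, 14 were lower and 4 higher (median -2.47).

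Genes of DNA replication and mitosis moved with the repair genes. Of 31 replication genes 30 were lower on exons and none was higher (median -2.31 in the authors' deposited table), and of 24 mitosis genes 21 were lower and none higher (median -0.98). By exon median, mitosis was therefore near the repair genes (-0.88), and replication was further below. The calls differed: 21 of 24 mitosis genes were lower on exons, beside 41 of 69 members. On introns 10 of 25 mitosis genes were lower by limma, beside 37 of 60 members. The replication list shares genes with the base excision list, Ung among them, and with the translesion list. Feeder fibroblast markers had a summed exon level of 49.5 RPKM in NPC and 105 RPKM in ESC, with 2 of 14 tested markers higher, 8 lower and none at 0 in either cell type. Col1a1, the main collagen of fibroblasts, was at 0.337 RPKM in NPC and 4.96 RPKM in ESC. Of the markers of other neural cells, 2 of 5 tested neuron markers were higher and 3 lower, and 3 of 4 tested astrocyte markers were higher and none lower. The part of cell division, of feeder RNA and of other neural cells in the repair gene changes was not tested.

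**Figure D4:**
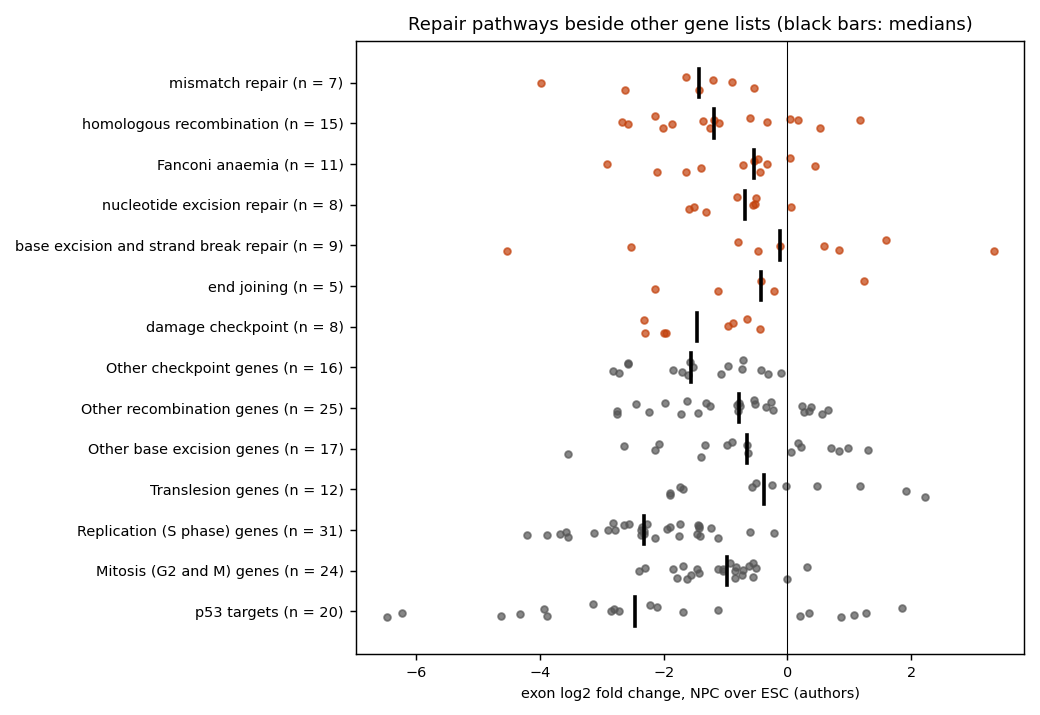
Exon log2 fold change of NPC over ESC (authors' deposited table) for each tested gene of 7 repair pathways (orange) and of 7 further lists (grey), with black bars at the medians. Repair pathway medians run from -1.46 for the checkpoint to -0.12 for base excision, beside -2.31 for replication and -0.98 for mitosis.

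**Figure D5:**
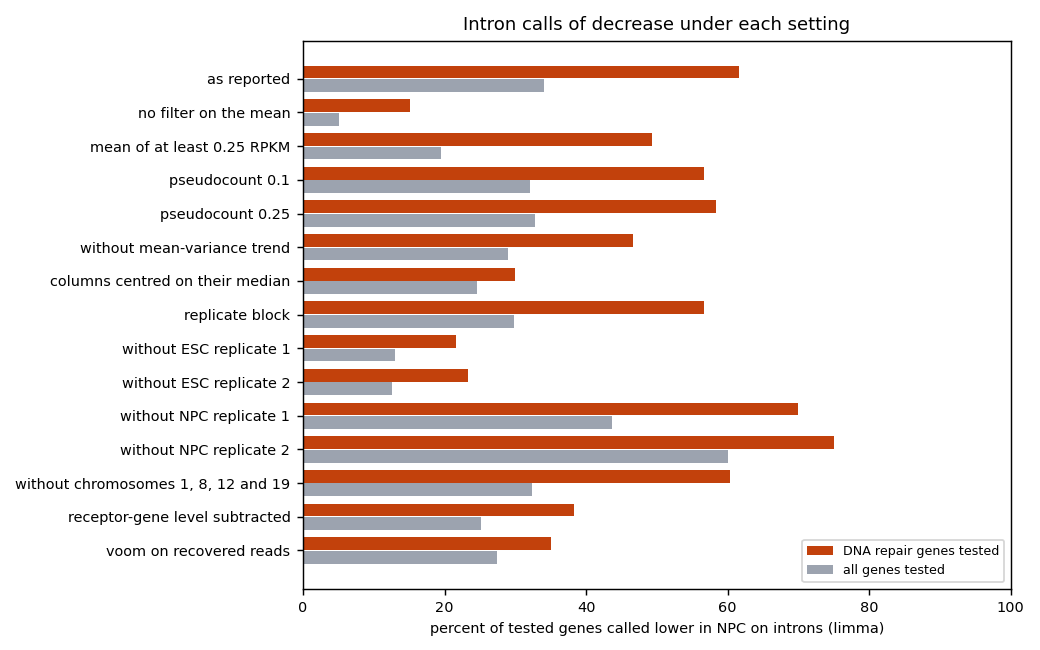
Percent of tested genes that limma called lower in NPC on introns, for DNA repair genes (orange) and all genes (grey), under each processing setting. The repair genes' share is 61.7% as reported, beside 34.0% of all genes, and 30.0% beside 24.6% when the columns are centred.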

How the data were processed

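Per the labels' protocols, ribosomal RNA was removed from total RNA and libraries were read as 50 bp single ends. The submitters' processing notes name DESeq2 1.10.0 and build mm9. No aligner, counter, annotation or strand setting is named in the labels or headers. The authors deposited exon RPKM pooled per cell type, a log2 fold change (NPC over ESC) with an adjusted p-value, and intron RPKM per biological replicate, technical libraries combined. The unit of the intron columns was inferred from the values. Whole reads were recovered for all 18393 named genes above 0, within 0.0001 reads. For introns of 10 kb, 3 reads, the limit that a count of 0 allows, correspond to 0.0518 and 0.0578 RPKM in NPC and 0.0520 and 0.0461 RPKM in ESC (counting error only).

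Exon calls are the authors' own, for named genes that average 1 RPKM or more. Introns were tested with limma 3.58.1 (R 4.3.3) on log2(RPKM + 1) with a mean-variance trend, under the same minimum, with Benjamini-Hochberg adjustment over all tested genes at 0.05, 2-sided. The fit was tested on simulated data. The intron p-values measure the spread between 2 and 2 biological replicates. The authors' exon test is described as covering all replicates, and whether technical libraries counted separately is not stated. The spread that its adjusted p-values measure is therefore not known. Alternatives (filter, pseudocount, trend, centring, block, replicates or chromosomes left out) are given in the closing section. Members, pathways, lists and tests were chosen with earlier results of these data known. All members could be named; other genes were named from the extremes of each list, apart from Col1a1. The deposited start of 11 members lies inside their introns, so intron bounds are given instead. Where exons overlap another gene's (over 10% of exon length in GENCODE M21 for 9 members, among them Rad54b, Rad9a, Lig3, Fanci and Fancl), reads may be shared. Some members are counted but not reported singly or drawn by gene here.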

Additional observations from a re-analysis of the deposited data

How the results depend on the processing

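Against 41 members called lower and 4 higher on exons, those called lower numbered 41 without a filter, 36 with a mean of at least 10 RPKM, 37 at an adjusted p of 0.01, 31 at a change of at least 2-fold and 33 without chromosomes 1, 8, 12 and 19, and those called higher numbered 2 with a mean of at least 10 RPKM, 5 without a filter (the fifth being Msh5) and 4 in the other settings. No called exon value changed sign with the ratio of pooled RPKM. Intron counts depended on the setting. Against 37 lower and 2 higher by limma, there were 11 and 1 without a filter, 18 and 4 with centred columns, 28 and 1 without the trend, 23 and 0 with the receptor-gene level subtracted, and 21 and 4 with voom on recovered reads, the last 2 chosen after seeing the data. With a mean of at least 0.25 RPKM 36 were lower and 3 higher, with a pseudocount of 0.1 or 0.25 there were 34 or 35 lower and 2 higher, and without chromosomes 1, 8, 12 and 19 there were 29 and 2. Leaving out 1 replicate gave 13 to 45 lower and 0 to 3 higher. The cause of these moves was not tested. In every setting the share of members called lower exceeded that of all genes. No called intron value changed sign. Of 39 called members, 6 kept the call in every alternative, among them Blm, Chek1, Chek2 and Rad9a (Rad9a lies on chromosome 19 and had 13 alternatives, the others 14). With the replicate block 34 were lower and 2 higher; same-numbered samples did not deviate together (correlation 0.02 over 8811 genes), so the numbers are not taken to pair them. The planned edgeR test was not run, since the files hold RPKM.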
